A study of Homo sapiens with 6 samples.

Results

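L1CAM and 9 further adhesion molecules of the immunoglobulin superfamily (NRCAM, NCAM1, MCAM, ALCAM, ICAM1, VCAM1, NECTIN2, F11R and BSG) were examined in U2OS cells with or without silencing of squalene epoxidase (SQLE). These 10 genes, of the 19937 in the count table, were matched by Ensembl identifier. They were chosen by their family and by the difference between shSQLE and shControl, with the low L1CAM counts in shSQLE already known, so that their differences between the groups are given as a description, without p-values. U2OS cells are a long-established line derived from human osteosarcoma (OSA). The 6 libraries of poly(A) RNA comprised 3 of shSQLE, cells stably carrying a short hairpin RNA against SQLE, and 3 of shControl, cells stably carrying a scrambled hairpin. Both hairpins were delivered by lentivirus from the pGIPZ plasmid, and both cell populations were kept under puromycin at 2 μg/mL for 2 weeks. Which of the hairpins designed against SQLE these cells carried was not named in the sources used here. Nothing in them ties replicates to separate cultures either, so that the spread between libraries, and every p-value, may be technical.

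Immunoglobulin-type adhesion molecules are membrane proteins whose extracellular immunoglobulin domains bind the same molecule on a neighbouring cell, another family member, an integrin or the matrix. Their cytoplasmic tails connect to ankyrins, to ERM proteins or to junctional scaffolds, and proteases can release the extracellular part. Several were first described in neurons, endothelium or leukocytes and are also found on tumour cells, where they are studied for their part in migration and metastasis.

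Libraries held 12212378 to 14393292 counts on genes. SQLE itself ranged from 1349 to 1924 normalized counts in shControl and from 204 to 229 in shSQLE. A normalized count is the count in a library rescaled to the mean effective library size (TMM). One control library stood apart. In shControl replicate 1, the median deviation from the mean of all libraries was 0.36 on the log2 scale for the 25% of genes richest in GC and -0.33 for the 25% poorest, while in the other libraries these medians lay between -0.20 and 0.24. Counts of this library differed from those of shControl replicates 2 and 3 by 53.9 and 63.6 times the sampling variance (chi-square per degree of freedom). Replicates 2 and 3 of shControl differed from each other by 2.83 times. Among shSQLE libraries, replicates 1 and 2 differed by 3.38 times, and replicate 3 differed from them by 9.73 and 15.7 times. Member differences are therefore given with and without shControl replicate 1, and those of genes in the other lists where the fit without it moved the value markedly. The labelled cell type was checked against its markers. Of 8 osteoblast-lineage markers, SPARC, RUNX2 and COL1A1 were detected in every library. SP7, ALPL and IBSP had at most 3 counts in each, and COL1A2 and BGLAP at most 6 and 5. The 8 markers summed to 6669 to 6748 normalized counts in shControl and 5436 to 5641 in shSQLE. Most of these sums was SPARC alone, with means of 6343 and 5231. The part of the difference between the sums in the results was not tested. Of 8 epithelial markers, keratins 8 and 18 were abundant, and EPCAM and CLDN4 were detected at far lower counts. CDH1, KRT19 and ESRP1 had at most 3 counts in each library, and ELF3 at most 15. TIE1, usually read as endothelial, had 1225 to 1586 counts per library, while the endothelial genes CDH5, VWF, TEK, CLDN5 and EMCN had at most 3. The 8 neuronal markers summed to 33.5 to 41.6 normalized counts in shControl and 28.6 to 49.9 in shSQLE, mostly from SNAP25. Leukocyte PTPRC and CD3E were at 0 in all 6 libraries.

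L1CAM (ENSG00000198910, hg38 chrX:153861514-153886173, minus strand, 29 exons in its canonical transcript) is the founding member of the L1 family. It is a neuronal adhesion receptor that binds itself and integrins and is shed by metalloproteases. Raw counts, in the order of replicates 1, 2 and 3 used throughout, were 258, 275 and 268 for shControl and 57, 46 and 43 for shSQLE. After normalization, these were 298, 249 and 263 against 55.8, 45.3 and 44.2. All 3 shSQLE libraries lay far below all 3 control libraries, with no overlap between the groups. The mean was 270 ± 25.3 in shControl and 48.5 ± 6.40 in shSQLE (SD, n = 3 each), 5.57-fold lower, with a log2 fold change of -2.47 (standard error 0.17). In bulk RNA, fewer cells with L1CAM transcripts and fewer transcripts per cell cannot be told apart. Over the 13 alternative fits the log2 fold change stayed between -2.59 and -2.39, and it was -2.39 without shControl replicate 1.

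A transcription start window of L1CAM is shown because this gene had the largest difference of the set. Those of ICAM1 and VCAM1, both textbook targets of NF-kB, are shown too. These ligands of leukocyte integrins included an abundant transcript and one without a count. Each window runs from 250 bases before to 50 bases after a RefSeq start on GRCh38.p14 and is written 5′ to 3′ on the strand of the gene. The L1CAM window lies at chrX:153875895-153876194 (minus strand), that of ICAM1 at chr19:10270870-10271169 (plus strand) and that of VCAM1 at chr1:100719492-100719791 (plus strand). L1CAM had 1 more, overlapping window at chrX:153875965-153876264, which is not printed. Both L1CAM windows lie inside the gene span given above, away from its 5′ end at 153886173. Neither covers the start of the whole gene. Capitals mark every match, on either strand, to any of the 7 motifs searched. The GC box was searched as GGGCGG. The TATA box was searched as TATAAA. The kappaB element of NF-kB was searched as GGNNTTTCC. The AP-1 element was searched as TGANTCA. The cyclic AMP response element was searched as TGACGTCA. The sterol regulatory element was searched as TCACNCCAC, and the interferon-stimulated element as GAAANNGAA.
L1CAM: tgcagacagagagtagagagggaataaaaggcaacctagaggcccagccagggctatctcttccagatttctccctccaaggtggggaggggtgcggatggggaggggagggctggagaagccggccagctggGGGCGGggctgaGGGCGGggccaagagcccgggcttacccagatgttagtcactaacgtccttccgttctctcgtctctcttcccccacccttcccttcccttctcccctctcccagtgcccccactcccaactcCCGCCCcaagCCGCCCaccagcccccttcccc
ICAM1: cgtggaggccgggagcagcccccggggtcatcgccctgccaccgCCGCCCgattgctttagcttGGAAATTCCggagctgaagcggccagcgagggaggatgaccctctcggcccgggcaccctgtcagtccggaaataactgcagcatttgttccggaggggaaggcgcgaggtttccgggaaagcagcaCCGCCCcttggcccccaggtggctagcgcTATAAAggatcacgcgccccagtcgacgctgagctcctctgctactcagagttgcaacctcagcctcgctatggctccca
VCAM1: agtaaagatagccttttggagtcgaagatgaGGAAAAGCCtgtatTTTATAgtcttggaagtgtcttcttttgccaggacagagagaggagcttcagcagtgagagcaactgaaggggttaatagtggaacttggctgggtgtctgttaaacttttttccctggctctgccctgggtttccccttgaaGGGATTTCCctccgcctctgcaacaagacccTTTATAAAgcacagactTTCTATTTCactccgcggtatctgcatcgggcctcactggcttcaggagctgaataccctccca
The printed L1CAM window held 4 GC boxes, at -117, -105, 19 and 29 from its start, and no match to the other letters searched. The L1CAM window not printed held GC boxes at -47 and -35 from its own start and no other match. ICAM1 held GC boxes at -206 and -59, a kappaB match on the minus strand at -186 and a TATA box at -30. VCAM1 held kappaB matches at -219 (minus strand) and -62 (plus strand), an interferon-stimulated match at -14 (minus strand), and TATA letters at -205 and, on both strands and overlapping, at -31 and -29. Of all 35116 RefSeq windows of this length, 45.0% held a GC box, 11.5% a TATA box, 6.26% a kappaB match, 7.71% an AP-1 match, 1.85% a cyclic AMP response element, 1.13% a sterol regulatory element and 8.11% an interferon-stimulated match. A window was found for 8 of the 10 members, and the sterol letters matched in none of their 12 windows. Such matches describe letters, not bound sites.

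NRCAM (ENSG00000091129, chr7:108147623-108456717) is the relative of L1CAM that organizes nodes of Ranvier together with ankyrins. It did not share the difference seen for L1CAM. Its normalized counts were 438, 745 and 729 in shControl and 596, 528 and 686 in shSQLE, with the lowest value of all in shControl replicate 1. The groups overlapped, and the log2 fold change was -0.08 (standard error 0.21), or -0.29 (standard error 0.11) without that library. Per length, the level of L1CAM was 0.747, 0.366 and 0.396 of the NRCAM level in shControl replicates 1, 2 and 3 and 0.103, 0.0942 and 0.0707 in shSQLE. This ratio within a library was lower in every shSQLE library than in any control. The other L1 family genes gave no comparison. CHL1 had no count in any library, and NFASC had at most 2.

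**Figure D1:**
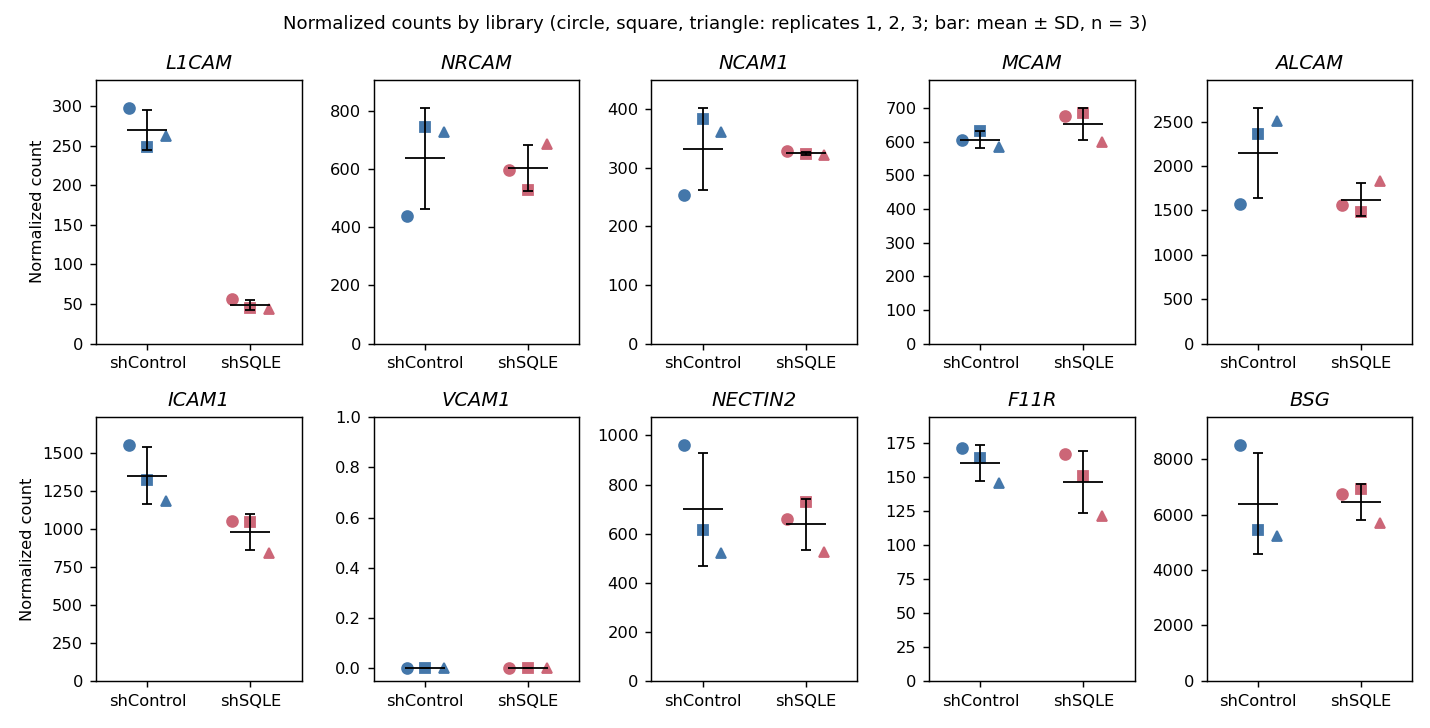
Normalized counts (vertical axes, each from its own zero baseline) of the 10 genes in shControl (blue) and shSQLE (red), with circles, squares and triangles for replicates 1, 2 and 3 and black bars for the mean ± SD (n = 3). L1CAM lay at 249 to 298 in shControl and 44.2 to 55.8 in shSQLE, VCAM1 was at 0 throughout, and shControl replicate 1 was the lowest or highest control for each gene with counts except MCAM.

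NCAM1, MCAM and ALCAM mediate homophilic or heterophilic contacts in neural, vascular and immune tissue. NCAM1 (ENSG00000149294, chr11:112961275-113278436) can carry polysialic acid, which weakens its adhesion. Its normalized counts were 253, 383 and 362 in shControl and 328, 324 and 322 in shSQLE. The shSQLE values sat inside the control range, with a log2 fold change of -0.04 (standard error 0.17), or -0.20 (standard error 0.10) without shControl replicate 1. MCAM (ENSG00000076706, chr11:119308529-119321521), or CD146, binds laminins that contain the alpha 4 chain. It had 604, 631 and 584 normalized counts in shControl and 676, 684 and 598 in shSQLE, with coefficients of variation of 3.94% and 7.25%. The log2 fold change was 0.11 (standard error 0.11), or 0.10 without shControl replicate 1, and 509 exonic bases of MCAM are shared with CBL on the opposite strand. ALCAM (ENSG00000170017, chr3:105366909-105576900), or CD166, binds itself and CD6 of lymphocytes. Its normalized counts were 1574, 2363 and 2514 in shControl and 1560, 1480 and 1830 in shSQLE. Here shControl replicates 2 and 3 lay above every shSQLE library, while shControl replicate 1 lay among them. The log2 fold change was -0.41 (standard error 0.19), and -0.59 (standard error 0.09) without shControl replicate 1.

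ICAM1 and VCAM1 are cytokine-inducible ligands of leukocyte integrins. ICAM1 (ENSG00000090339, chr19:10271093-10286615), whose start window with its kappaB letters is printed above, had 1547, 1317 and 1181 normalized counts in shControl and 1052, 1041 and 841 in shSQLE. All shSQLE libraries were below all control libraries, by a smaller distance than for L1CAM. The means were 1348 ± 185 and 978 ± 119 (SD, n = 3 each), or 72.5% of the control, and the log2 fold change was -0.46 (standard error 0.15), or -0.35 (standard error 0.11) without shControl replicate 1. The gene shares 815 exonic bases with ICAM4-AS1 on the opposite strand. VCAM1 (ENSG00000162692, chr1:100719742-100739045) had 0 counts in all 6 libraries, a count that allows up to 3 counts in each, and could not be compared.

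NECTIN2 and F11R act at cell junctions. NECTIN2 (ENSG00000130202, chr19:44846175-44889223) binds other nectins and is anchored by afadin. It had 960, 617 and 521 normalized counts in shControl and 660, 729 and 524 in shSQLE. Its spread within shControl was the widest of the set (coefficient of variation 33.0%), and its log2 fold change of -0.13 (standard error 0.24) became 0.17 (standard error 0.13) without shControl replicate 1. F11R (ENSG00000158769, chr1:160995211-161021343), the junctional adhesion molecule JAM-A, had 171, 164 and 145 normalized counts in shControl and 166, 151 and 121 in shSQLE. These ranges overlapped, with a log2 fold change of -0.13 (standard error 0.17), or -0.08 (standard error 0.16) without shControl replicate 1. A readthrough gene (ENSG00000270149) shares 1853 exonic bases with F11R on the same strand and had no count in any library. Reads on these shared bases may not have been counted for either gene, so that the counts of F11R may be too low.

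BSG (ENSG00000172270, chr19:571277-583494), basigin or CD147, is the chaperone of the lactate transporters MCT1 and MCT4 and binds cyclophilin A. It was the most abundant member. Its normalized counts were 8498, 5449 and 5228 in shControl and 6726, 6915 and 5698 in shSQLE, and the highest value of all was in shControl replicate 1. The log2 fold change was 0.01 (standard error 0.20), or 0.27 (standard error 0.09) without that library.

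**Figure D2:**
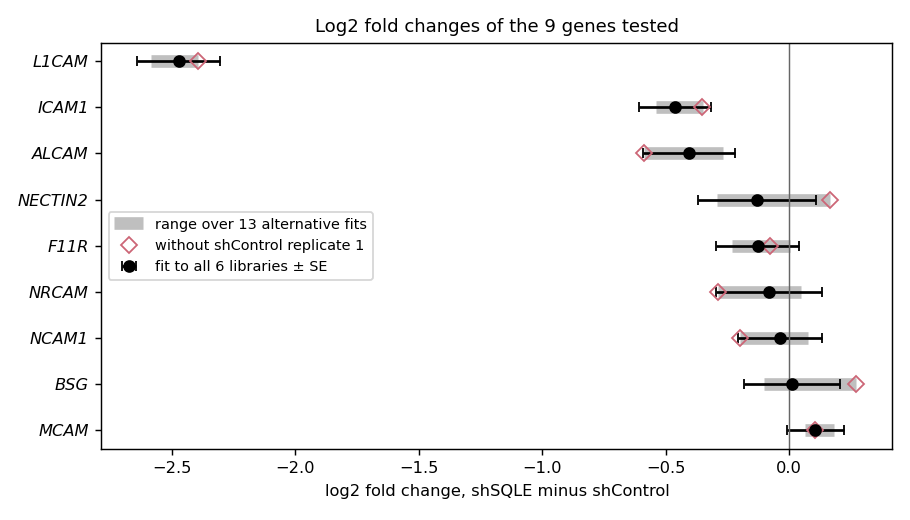
Log2 fold change of shSQLE minus shControl (horizontal axis) for the 9 genes tested: black points with bars are the fit to all 6 libraries ± standard error, grey bars the range over 13 alternative fits, and open diamonds the fit without shControl replicate 1. L1CAM at -2.47 is separated from ICAM1 at -0.46 and ALCAM at -0.41, and NECTIN2 and BSG lie to the right of their black points without shControl replicate 1.

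Across the members, 7 of the 9 genes tested had a log2 fold change below 0 and 2 above it, with a median of -0.13, where the median of all 12450 genes tested was -0.01. For 8 of the 9 the change was within 0.5 on the log2 scale. The groups did not overlap for 2 members, L1CAM and ICAM1, as for 22.1% of all genes. Since the members were chosen on this comparison, nothing is read from that count.

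The position of shControl replicate 1 differed from gene to gene. On the log2 scale, its normalized count exceeded the mean of shControl replicates 2 and 3 by 0.75 for NECTIN2 and 0.67 for BSG, whose canonical transcripts have 60.8% and 62.5% GC. It was below that mean for NRCAM (-0.75), ALCAM (-0.63) and NCAM1 (-0.56), with 42.1%, 39.6% and 48.0% GC. L1CAM, with 60.0% GC, was 0.22 above, and ICAM1, with 56.0%, was 0.31 above. F11R, with 46.7% GC, was 0.15 above, and MCAM, with 56.1%, was at -0.01. The difference of L1CAM between the groups was about as large without this library, and its log2 fold change with offsets for GC content and exon length was -2.40. For the smaller differences of the other members, the part of GC content was not tested beyond these fits.

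Levels were compared between genes per length, as counts per kilobase of exon (union of all exons) and per 1e+06 effective counts. In shControl the order was BSG (107 ± 30.7), ICAM1 (29.0 ± 3.98), ALCAM (22.2 ± 5.22), NECTIN2 (13.9 ± 4.57), MCAM (6.06 ± 0.238), NRCAM (5.93 ± 1.61), L1CAM (2.75 ± 0.259), F11R (2.34 ± 0.194) and NCAM1 (1.94 ± 0.407), with VCAM1 at 0 (SD, n = 3 each). Of the 8 pairs of neighbours with counts, 4 had ranges that did not overlap: BSG above ICAM1, NECTIN2 above MCAM, NRCAM above L1CAM, and L1CAM above F11R. The exon length of F11R includes the 1853 bases shared with its readthrough gene, where reads may not have been counted, so its place below L1CAM is uncertain. ICAM1 and ALCAM, ALCAM and NECTIN2, MCAM and NRCAM, and F11R and NCAM1 overlapped in range. Within single libraries, F11R was nevertheless above NCAM1 in all 3, ICAM1 above ALCAM and ALCAM above NECTIN2 in 2 of 3, and MCAM above NRCAM in 1 of 3. Both genes of a pair were read in the same 3 libraries, so no test between them is given. BSG made up 55.4% of the summed level of the 10 members in shControl and 61.6% in shSQLE. L1CAM made up 1.45% and 0.282%. L1CAM was thus the seventh of the 9 genes with counts in shControl and the last in shSQLE, at 0.494 ± 0.0653 (SD, n = 3), below NCAM1 at 1.90 ± 0.0186 (SD, n = 3). The order depended in part on the length used. With the longest transcript in place of the union of exons, 5 of the 10 positions were kept, ALCAM came before ICAM1, and NCAM1 moved to the seventh, ahead of L1CAM.

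**Figure D3:**
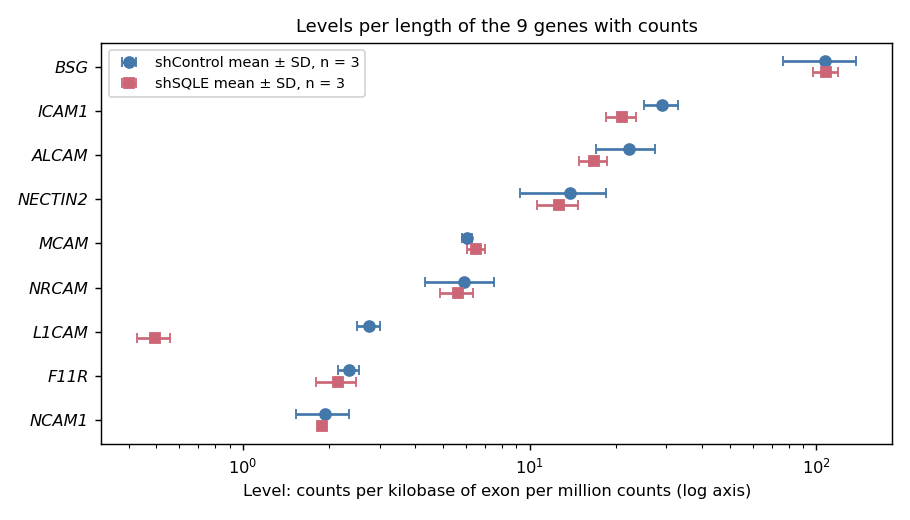
Level in counts per kilobase of exon and per 1e+06 effective counts (horizontal log axis) of the 9 genes with counts, as the mean ± SD of 3 libraries in shControl (blue circles) and shSQLE (red squares). BSG is highest in both groups, at 107 and 108, and L1CAM moves from 2.75 in shControl to the lowest position, 0.494, in shSQLE.

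The genes whose log2 CPM followed L1CAM most closely over the 6 libraries, among 9878 genes with a mean of at least 100 normalized counts, were BMF (Pearson's r = 0.999), COL6A1 (0.998), NPTXR (0.997), FOXF1 (0.996) and PDIA4 (0.996). These 6 libraries form 2 groups, so that any gene with a steady difference between the groups has a high r, and 31 genes had an r over 0.99. The log2 fold change was -2.17 for BMF, -1.70 for COL6A1, -0.91 for NPTXR, -1.10 for FOXF1 and -1.17 for PDIA4. On the X chromosome, 12 other genes of the table lay within 100 kb of L1CAM, a window chosen after the member values were seen. Of the 8 tested, 0 passed the adjusted p in edgeR and 0 in DESeq2, and 2 had an unadjusted p under 0.05. Their log2 fold changes ran from -0.58 for SSR4, a subunit of the translocon-associated complex, to 0.22 for PDZD4. ARHGAP4, upstream of L1CAM on the same strand, was at -0.12 (standard error 0.21). A readthrough gene (ENSG00000284987) that shares 439 exonic bases with L1CAM had at most 1 count in any library, and reads on these bases may not have been counted for either gene.

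Beyond the members, 68 other immunoglobulin-type adhesion genes were listed. Of these, 22 had at most 3 counts in every library, including 10 with no count at all, and 37 were tested. CEACAM1 and AMIGO2 fell in shSQLE by edgeR's quasi-likelihood test (2 of 37), which passed 3.21% of all genes tested in either direction and 2.84% as lower. In that fit no gene of the list rose (0 in edgeR, 2 in DESeq2, and 6 higher at an unadjusted p under 0.05). Other fits called genes higher as well: 10 were lower and 5 higher without shControl replicate 1, where 33.9% of all genes passed, and 6 were lower and 5 higher with offsets for GC content and exon length, where 15.4% passed. The median log2 fold change of the 37 genes was -0.07, against -0.01 for all genes. CEACAM1, a homophilic adhesion molecule of epithelia and leukocytes, had 43.9, 29.8 and 39.2 normalized counts in shControl and 4.90, 10.8 and 9.25 in shSQLE (log2 fold change -2.15, standard error 0.34, adjusted p = 0.0149 in edgeR). These are few counts, the CEACAM family has close paralogs, and leaving out 1 library at a time lost the call in 4 of 6 fits (largest adjusted p in edgeR 0.0924). AMIGO2, a leucine-rich repeat and immunoglobulin protein, had 2543, 3179 and 3170 normalized counts in shControl and 1856, 1757 and 1912 in shSQLE (log2 fold change -0.69, standard error 0.12, adjusted p = 0.0235 in edgeR). It kept its call only without shControl replicate 1 among those 6 fits, and 123 of its exonic bases are shared with PCED1B on the opposite strand.

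The most abundant gene per length was CNTN4 among L1 relatives and contactins (log2 fold change -0.61, standard error 0.33), BCAM among relatives of NCAM1, MCAM and ALCAM (0.40, standard error 0.26), and CD47 among leukocyte-type molecules (-0.40, standard error 0.11). It was PVR among nectins (-0.05, standard error 0.11), CLMP among junctional molecules (-0.64, standard error 0.17) and NPTN in the basigin group (-0.10, standard error 0.15). Adjusted p-values of these 6 genes in edgeR ran from 0.102 for CLMP to 0.894 for PVR. Without shControl replicate 1, BCAM was at 0.62, PVR at 0.02 and NPTN at -0.24. In that fit CLMP (-0.80), CD47 (-0.47), BCAM and NPTN passed the adjusted p, as did 33.9% of all genes. Among the relatives of ALCAM and NCAM1, THY1, NTM, OPCML and DSCAM had no count in any library.

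Of 41 genes for binding partners, anchors and processing enzymes of the members, 34 were tested, with a median log2 fold change of -0.16, against -0.01 for all genes. This median was -0.33 without shControl replicate 1 and -0.06 with the GC and length offsets, where that of all genes was 0.06. LAMA4, ST8SIA4, ITGB2 and LGALS3 fell (4 of 34, beside 3.21% of all genes), and none rose past the adjusted p (0 in edgeR, 1 in DESeq2, and 1 higher at an unadjusted p under 0.05). Without shControl replicate 1, 17 were lower and 2 higher past it, where 33.9% of all genes passed. With the offsets, 12 were lower and 3 higher, where 15.4% of all genes passed. LAMA4, the laminin alpha 4 chain bound by MCAM, had 109, 144 and 138 normalized counts in shControl and 10.8, 24.6 and 24.7 in shSQLE (log2 fold change -2.70, standard error 0.29, adjusted p = 0.00302 in edgeR). The groups were far apart, and the call held in all 6 fits without 1 library. Thus this ligand was lower while its receptor MCAM had a log2 fold change of 0.11. ST8SIA4, the enzyme that adds polysialic acid to NCAM1, had 48.5, 76.9 and 102 normalized counts in shControl and 13.7, 10.8 and 22.6 in shSQLE (log2 fold change -2.27, standard error 0.37, adjusted p = 0.0177 in edgeR). Leaving out 1 library at a time lost this call in 4 of 6 fits (largest adjusted p in edgeR 0.112). The other polysialyltransferase, ST8SIA2, had at most 4 counts.

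Among integrin partners, ITGB2, the common beta chain of the leukocyte integrins that bind ICAM1, had 56.6, 53.4 and 61.8 normalized counts in shControl and 32.3, 24.6 and 24.7 in shSQLE (log2 fold change -1.07, standard error 0.21, adjusted p = 0.0360 in edgeR). This call was kept without shControl replicate 1 and lost in the other 5 fits without 1 library. Of its alpha partners, ITGAL had no count and ITGAM 7, 9 and 11 raw counts in shControl against 1, 0 and 2 in shSQLE, too few to be tested. ITGAX had 84.3, 72.3 and 104 normalized counts in shControl and 41.1, 51.3 and 59.6 in shSQLE, without overlap. Its log2 fold change was -0.78 (standard error 0.22), with an edgeR adjusted p of 0.129, and 0.0167 without shControl replicate 1, where 33.9% of all genes passed. The 8 leukocyte markers, which include ITGB2, summed to 115 to 121 normalized counts in shControl and 46.3 to 70.5 in shSQLE, with 4 of them at 3 or fewer counts everywhere and PTPRC at 0. The mean levels per length of the integrins ITGA5 and ITGB1 were 35.6 and 30.0 in shControl and 25.9 and 31.3 in shSQLE. In shControl replicate 1 they were 40.8 and 17.1, while ITGB1 reached 37.4 in shControl replicate 3. The union of ITGB1 exons is 14561 bases and its longest transcript 5614, so its level depends on the length used. No change of order between the groups is read from these values. ITGA5 was at -0.46 on the log2 scale (standard error 0.12) with an edgeR adjusted p of 0.0945. ITGB1 was at 0.06 (standard error 0.28), or -0.22 (standard error 0.12) without shControl replicate 1. LGALS3, the galactoside-binding lectin galectin-3, had 826, 643 and 603 normalized counts in shControl and 411, 384 and 343 in shSQLE (log2 fold change -0.86, standard error 0.16, adjusted p = 0.0264 in edgeR). It kept its call in 2 of the 6 fits, those without shControl replicate 1 or 3.

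Among the partners of BSG, cyclophilin A (PPIA), the most abundant extracellular partner per length, had a log2 fold change of 0.06 (standard error 0.15), or 0.23 (standard error 0.09) without shControl replicate 1. The transporter MCT1 (SLC16A1) had 4379 ± 843 normalized counts in shControl and 7089 ± 424 in shSQLE (SD, n = 3 each), without overlap. Its log2 fold change was 0.69 (standard error 0.15), with an edgeR adjusted p of 0.0562. MCT4 (SLC16A3) had 1035 ± 340 and 665 ± 84.5 (SD, n = 3 each), also without overlap. Its log2 fold change was -0.64 (standard error 0.23), with an edgeR adjusted p of 0.237. Neither passed the threshold, and they lay on opposite sides of 0 beside a BSG difference of 0.01. Without shControl replicate 1, where 33.9% of all genes passed, their log2 fold changes were 0.54 and -0.34, with an adjusted p in edgeR of 0.000412 and 0.0349. MCT2 (SLC16A7) was at a low level, with a log2 fold change of -0.09 (standard error 0.28), or -0.31 without that library, and SLC16A8 had no count. The 11 tested genes of cytoskeletal and junctional anchors, among them moesin (MSN) as the most abundant with a log2 fold change of 0.13 (standard error 0.10), or 0.08 without shControl replicate 1, had a median of -0.0033. Of these, 0 passed the adjusted p in edgeR and 0 in DESeq2, and 1, ANK1, had an unadjusted p under 0.05 (log2 fold change -1.08, standard error 0.25). ANK1 encodes an ankyrin, the kind of adaptor that binds L1 family tails, and had only 14 to 40 raw counts per library. The other ankyrins of the list, ANK2 and ANK3, were at 0.12 (standard error 0.25) and -0.16 (standard error 0.21). Without shControl replicate 1 these were at -0.12 and -0.34. Among sheddases, MMP14 was the most abundant, with a log2 fold change of -0.11 (standard error 0.13), or 0.01 (standard error 0.08) without shControl replicate 1. ADAM10, which cleaves L1CAM, had one of -0.04 (standard error 0.23), or -0.28 (standard error 0.10) without that library.

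**Figure D4:**
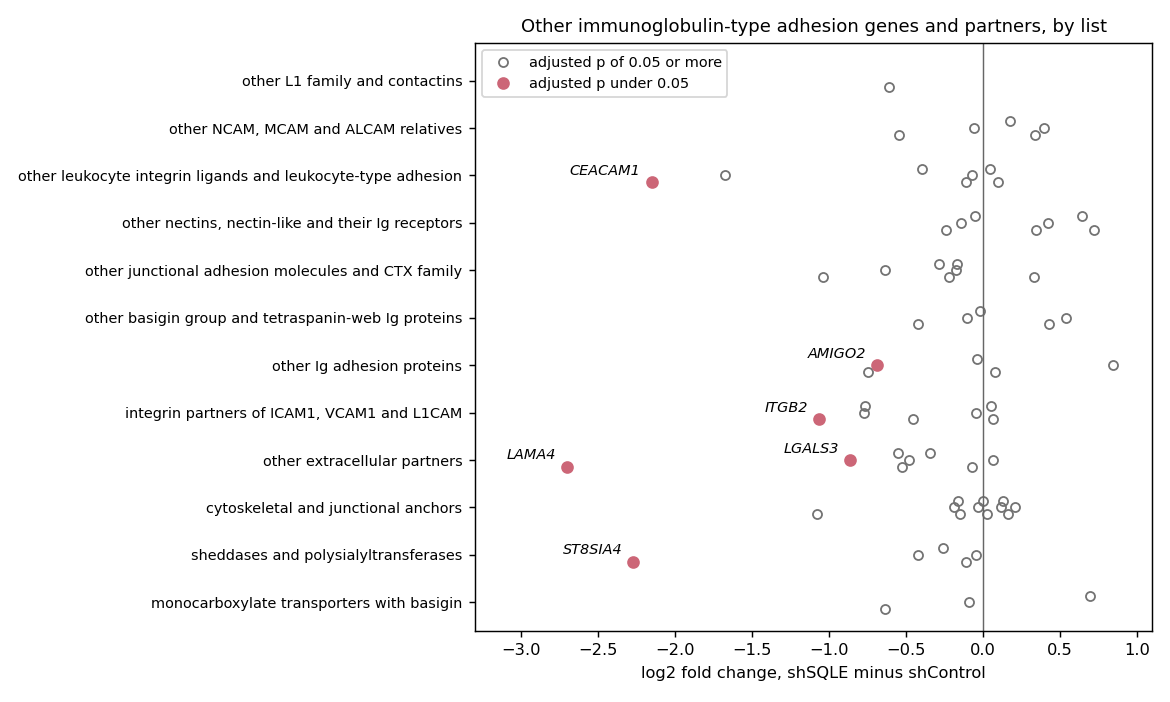
Log2 fold change of shSQLE minus shControl (horizontal axis) of each gene tested in 7 lists of other immunoglobulin-type adhesion genes and 5 lists of partners and processing genes (rows), with filled red points for an adjusted p under 0.05 in edgeR and open grey points for the rest. The 6 named red points all lie below 0, from LAMA4 at -2.70 to AMIGO2 at -0.69, and most open points lie within 1 of 0.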

How the data were processed

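According to the submitters' processing notes, reads of 151 bp were handled with fastp 0.20.0, STAR 2.7.9a and featureCounts 2.0 on hg38. The table the authors deposited holds unnormalized read counts for each gene and library, and the annotation release, strand setting and treatment of multi-mapping reads are not given in the sources used here. Symbols, positions, exon lengths and GC content came from GENCODE v44 and start windows from RefSeq (GRCh38.p14).

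Counts were analysed with R 4.3.3 and edgeR 4.0.16. After filterByExpr, 12450 genes were tested with edgeR's quasi-likelihood test (TMM normalization, a model with group alone), and p-values were adjusted by Benjamini-Hochberg with a threshold of 0.05. The standard error is the size of the log2 fold change divided by the square root of F. Alternatives were DESeq2 1.42.0, scaling by RLE or by library size, stricter and absent filters, a replicate block, GC and length offsets (mgcv 1.9.3) and leaving out each library.

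The genes named were the members, SQLE, list genes past the adjusted p, the most abundant gene per list and length, the 5 genes most like L1CAM and overlapping genes. Further genes named for context (such as SLC16A3, ITGB1, ADAM10, ANK1, ANK2, ANK3, ITGAX, ITGAM, SLC16A7, SSR4, PDZD4, ARHGAP4 and genes at 0) were chosen after their values were seen. Members and lists were chosen with earlier results of these data known. A count of 0 was read as at most 3 counts, which covers counting error only.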

Additional observations from a re-analysis of the deposited data

How the results depend on the processing

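The log2 fold changes of the 9 members tested moved by less than 1 SD of the replicate spread in all 13 alternative fits. This SD includes shControl replicate 1, which widens it, so it is a lenient measure for the fit without that library. NRCAM, NCAM1, NECTIN2, F11R and BSG had values on both sides of 0 over these fits. Without shControl replicate 1, NECTIN2 moved from -0.13 to 0.17 and BSG from 0.01 to 0.27. From the count of members past the adjusted p, nothing is read. It was 1 of 9 in the fit as reported, where 3.21% of all genes passed. With GC content and length offsets it was 3, where 15.4% of all genes passed. In the fits that left out 1 library it ranged from 1 to 4. The 4 came without shControl replicate 1, where 33.9% of all genes passed. For the other immunoglobulin-type adhesion genes, the count of 2 among 37 became 6 among 58 with DESeq2, which tested more genes. Among the same 37, DESeq2 passed 3 lower and 2 higher. With at least 10 counts in every sample it was 1 among 32, and with GC content and length offsets 11. It ranged from 0 to 15 without 1 library (15 without shControl replicate 1, 1 without shControl replicate 2 and 0 without any other). For partners and processing genes, the count of 4 became 15 with GC content and length offsets and ranged from 1 to 19 without 1 library (19 without shControl replicate 1, and 1 without shControl replicate 2 or any shSQLE library). Over all genes, 354 lower and 46 higher (400) became 556 and 158 with DESeq2 (714) and 902 and 1015 with GC content and length offsets (1917), and the total ranged from 109 (without any shSQLE library) to 4264 (without shControl replicate 1), with 163 without shControl replicate 2 and 211 without shControl replicate 3. With the longest transcript as length, 5 of the 10 positions in the order of levels were kept. The cause of these shifts was not tested. With the replicate number as a block, 1 member, 2 other adhesion genes, 4 partners and 396 genes in all passed. Deviations of same-numbered samples correlated at 0.14, -0.43 and 0.54, and shControl replicate 1 correlated best with shSQLE replicate 2. These deviations come from 3 libraries per group and carry the GC trend of shControl replicate 1. They therefore cannot show whether the numbers pair the samples.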
